A study of Mus musculus with 2 samples.

Results

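Elastic fibres and the microfibrils around them were followed through 10 genes: Eln, Fbn1, Mfap5, Mfap2, Mfap4, Fbln1, Fbln2, Fbln5, Efemp1 and Emilin2. They were chosen by name, as genes for structural proteins of these fibres, and all 10 were found among the 27998 genes counted. The cells were the stromal vascular fraction of mouse epididymal white adipose tissue (eWAT), which is what remains of the tissue once the adipocytes are taken off, and the transcripts were read from their 3′ ends with single-cell droplets. Male C57BL/6 mice (C57BL/6J in the study's methods) received a low fat diet (LFD) or a high fat diet (HFD) for 24 weeks from 6 weeks of age, and the study asked how the eWAT stroma differs between the diets. There was 1 library per diet, and how many mice went into each is not given in the sources used here. A treatment note names the low fat diet for both libraries, whereas the title and the treatment label of the second library name HFD, and those labels were followed.

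An elastic fibre has a core of crosslinked elastin laid down on a scaffold of fibrillin microfibrils. Microfibril-associated glycoproteins decorate the scaffold, fibulins help to place elastin on it, and emilins sit where elastin and microfibrils meet. In adipose tissue, fibroblasts and their progenitors are the main known makers of these proteins, and vessel walls contain them too.

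The LFD library comprised 7356278 unique molecular identifiers (UMIs, 1 per captured transcript) over 1113 cell barcodes, and the HFD library 8412325 UMIs over 1144 barcodes. The libraries shared 0 barcodes. Depth was close: the median barcode had 6197 UMIs from 2180 genes on LFD and 6486 UMIs from 2209 genes on HFD. At least 200 genes were detected in 1057 and 1117 barcodes, which were used here. Levels are given as CPM, which divides a gene's UMIs by the UMIs of all genes in the same class and library and multiplies by 1e6. Since each transcript gives 1 UMI from its 3′ end whatever its length, levels of different genes were compared with no scaling by length. Ranges in parentheses are exact 95% intervals, Poisson for a level and conditional binomial for a ratio. They cover counting error only, and with no replicate library the spread between animals is unknown and no test between diets was possible.

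Barcodes were put into classes by raw UMIs. Fibroblasts had at least 10 UMIs of Dcn, the matrix proteoglycan decorin. Those with at least 3 UMIs of Pi16, Dpp4 and Sema3c together, genes of adventitial progenitors, were called progenitors, and the rest Pi16-low fibroblasts. Endothelial barcodes had at least 3 UMIs of Cdh5 and Cldn5, mural barcodes at least 5 of Rgs5, Kcnj8, Abcc9 and Notch3, and macrophages at least 10 of C1qa, C1qb and C1qc. On LFD and HFD there were 204 and 207 Pi16-low fibroblasts, 173 and 84 progenitors, 98 and 115 endothelial barcodes, 5 and 6 mural barcodes, and 230 and 321 macrophages. The rules of more than 1 class were met by 65 and 120 barcodes, and those of none by 282 and 264, and both groups were kept out of the classes.

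Markers that the rules did not use were read in each class. The summed level of 6 fibroblast genes was 35453 and 45516 CPM in Pi16-low fibroblasts on LFD and HFD. The summed level of 5 progenitor genes was 1948 and 2071 CPM in these cells. The summed level of 5 endothelial genes was 3544 and 3588 CPM in endothelial barcodes, and that of 5 macrophage genes 3966 and 2996 CPM in macrophages. In the few mural barcodes, 7 mural genes summed to 2009 and 3643 CPM and the 6 fibroblast genes to 4247 and 2893 CPM. Dcn itself, which sets the fibroblast classes, was at 24854 CPM on LFD and 19192 CPM on HFD in Pi16-low fibroblasts. With fibroblasts required to have at least 20 Dcn UMIs, the same genes were higher on HFD as with 10.

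The progenitor class was mixed. Of its barcodes, 25 of 173 on LFD (14.5%, 9.58 to 20.6) and 12 of 84 on HFD (14.3%, 7.61 to 23.6) had at least 5 UMIs of the mesothelial genes Msln, Upk3b, Lrrn4 and Krt19 together. A list of 8 mesothelial genes summed to 7096 CPM in them on LFD and 6960 CPM on HFD, led by Upk3b, but 4 of its genes had chosen these barcodes. Of the other 4, the keratin genes Krt7, Krt8 and Krt18 were at 332, 356 and 454 CPM on LFD and at 331, 344 and 701 CPM on HFD, and had at most 1 UMI in the other progenitors of either diet. Wt1 was at 318 and 344 CPM in the marked barcodes and at 188 and 138 CPM in the other progenitors. The fibroblast genes went the other way, at 5202 and 5656 CPM with mesothelial markers and 23892 and 34930 CPM without. The progenitor genes were at 1433 and 1105 CPM with mesothelial markers and 4584 and 4808 CPM without. The markers of the first kind thus go against the name progenitor, and these barcodes are described apart as mesothelial-marked barcodes. This division was made after seeing the data. Below, progenitors are the 148 LFD and 72 HFD barcodes left, unless the full class is named.

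Nearly all UMIs of most of the 10 genes came from the fibroblast classes. The full progenitor class and the Pi16-low fibroblasts together held 98.0% of Fbn1 UMIs on LFD and 91.7% on HFD. For Mfap5 these shares were 98.0% and 91.3%, for Efemp1 98.2% and 96.4%, and for Fbln1 97.8% and 95.4%. The lowest shares among the 10 genes were those of Emilin2, at 78.2% and 58.2%, and of Fbln5, at 87.3% and 67.4%. Macrophages held 15.6% and 26.9% of Emilin2, and barcodes that met both the endothelial and the mural rule held 4.94% and 15.8% of Fbln5. T cells, which should lack these genes, were read as background, in 83 barcodes of both libraries (64 on LFD and 19 on HFD). In them 8 of the 10 genes had 0 UMIs, which allows up to 10.5 CPM by the Poisson interval, Efemp1 had 1 and Emilin2 had 5. Their UMIs of all genes were 308186 on LFD and 44550 on HFD, so the bound for HFD alone is much wider. On LFD 5 macrophage genes summed to 324 CPM and 3 B cell genes to 153 CPM in T cells, against 22.4 and 0 CPM on HFD. Whether UMIs in T cells were free RNA was not tested.

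**Figure D1:**
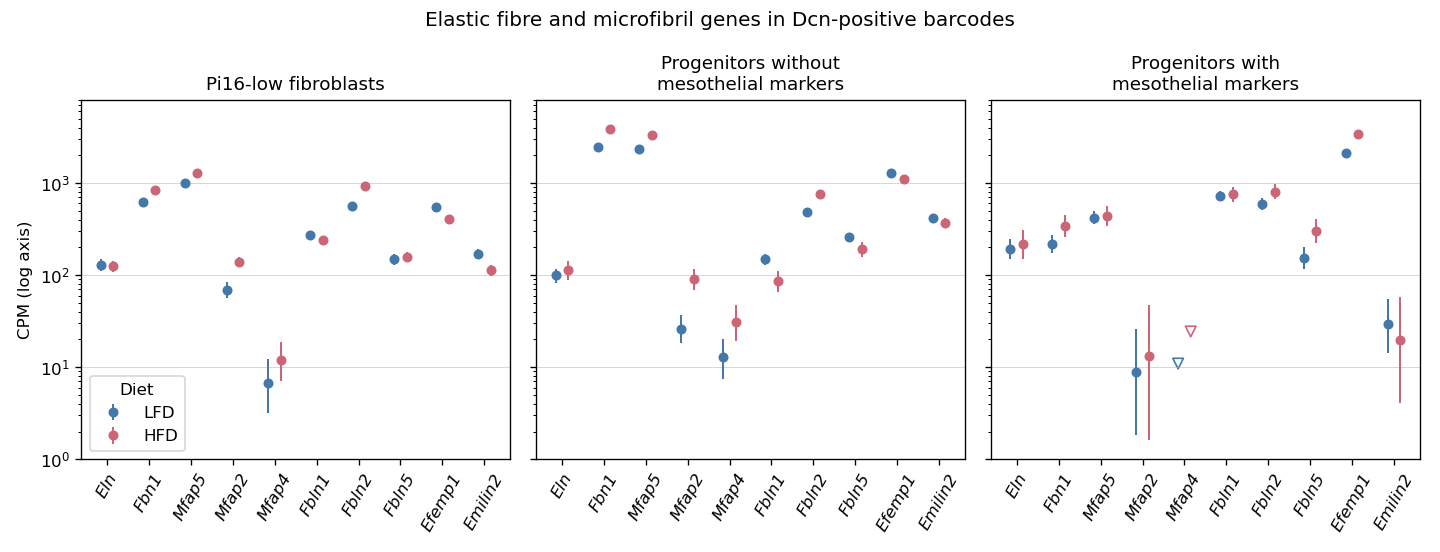
Level of each gene in CPM (log axis) in Pi16-low fibroblasts, in progenitors without mesothelial markers and in mesothelial-marked barcodes, on LFD and HFD; points are pooled levels, bars exact 95% Poisson intervals, and open triangles the upper bound of that interval for 0 UMIs. Fbn1 and Mfap5 are the highest points in progenitors (2459.9 and 2362 CPM on LFD), whereas Efemp1 is the highest in mesothelial-marked barcodes (2137 CPM on LFD).

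The order of levels differed between the classes. In Pi16-low fibroblasts on LFD, Mfap5 came first at 997 CPM (947 to 1049), followed by Fbn1, Fbln2 and Efemp1 between 553 and 620.1 CPM, whose intervals overlap. Fbln1 was next at 272 CPM, then Emilin2, Fbln5 and Eln between 129 and 169 CPM, where each overlaps its neighbour, Mfap2 at 68.5 CPM and Mfap4 at 6.71 CPM. On HFD, Mfap5 was again first and Mfap4 last, and Fbln2 stood second. In progenitors, Fbn1 and Mfap5 led on LFD with overlapping intervals, and Fbn1 led alone on HFD. Efemp1, Fbln2 and Emilin2 came next on both diets, and Mfap4 was last. In mesothelial-marked barcodes Efemp1 was first on both diets, and Mfap4 had 0 UMIs, which allows up to 10.9 CPM on LFD and 24.4 CPM on HFD.

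Some of the 10 genes were higher and some lower in progenitors than in Pi16-low fibroblasts of the same library. Eln and Fbln2 were neither on either diet. A gene was counted as higher or lower where the levels differed at least 1.5-fold and the 2 sets of barcodes together had at least 50 UMIs. On LFD, 5 of the 9 genes with enough UMIs were higher in progenitors (Fbn1, Mfap5, Efemp1, Emilin2 and Fbln5), against 10.6% of all 6252 genes, and 2 were lower (Fbln1 and Mfap2), against 10.2%. On HFD, 4 of 9 were higher, against 12% of 5414 genes, the same genes without Fbln5, and 2 were lower, again Fbln1 and Mfap2, against 12.1%. The median log2 ratio was 0.80 on LFD and 0.27 on HFD over the 9 genes, and 0.01 and 0.00 over all genes. Mfap4 had too few UMIs on either diet.

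Most of these genes changed with the number of progenitor gene UMIs in a barcode. Barcodes of both kinds without mesothelial markers were grouped by 0, 1 to 2, 3 to 9 or at least 10 UMIs of Pi16, Dpp4 and Sema3c. The same counts divide progenitors from Pi16-low fibroblasts, at 3 UMIs. The groups thus set out that division in finer steps and are no separate support for it. On LFD, Fbn1 was at 468, 851, 2024 and 2824 CPM over these groups, and on HFD at 709.5, 1085, 2949 and 4745 CPM. The level of Fbn1 thus rose at every step on both diets. Median depth rose along the groups as well, from 7445 to 9803 UMIs per barcode on LFD, and its part in the result was not tested. Mfap5 and Efemp1 rose at every step on both diets too, Mfap5 from 894 to 2826 CPM on LFD and from 1133 to 3903 CPM on HFD, and Efemp1 from 506 to 1473 CPM and from 377 to 1367 CPM. The intervals of Efemp1 overlapped at the first step on both diets. Emilin2 went from 144 to 427 CPM and from 102 to 435 CPM, up at every step but with overlap between some neighbouring intervals. Fbln5 went from 136 to 281 CPM on LFD and from 148 to 196 CPM on HFD, with overlapping intervals at every step. On HFD the Fbln5 intervals of the first and last group overlapped too (126 to 172 and 151 to 250). Mfap2 fell at every step on LFD, from 81.7 to 22.0 CPM, with overlap between neighbouring intervals, but on HFD was at 149, 119.7, 129 and 51.3 CPM. Fbln1 too ended lower than it started, going from 264 to 101 CPM on LFD and from 246 to 48.3 CPM on HFD.

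**Figure D2:**
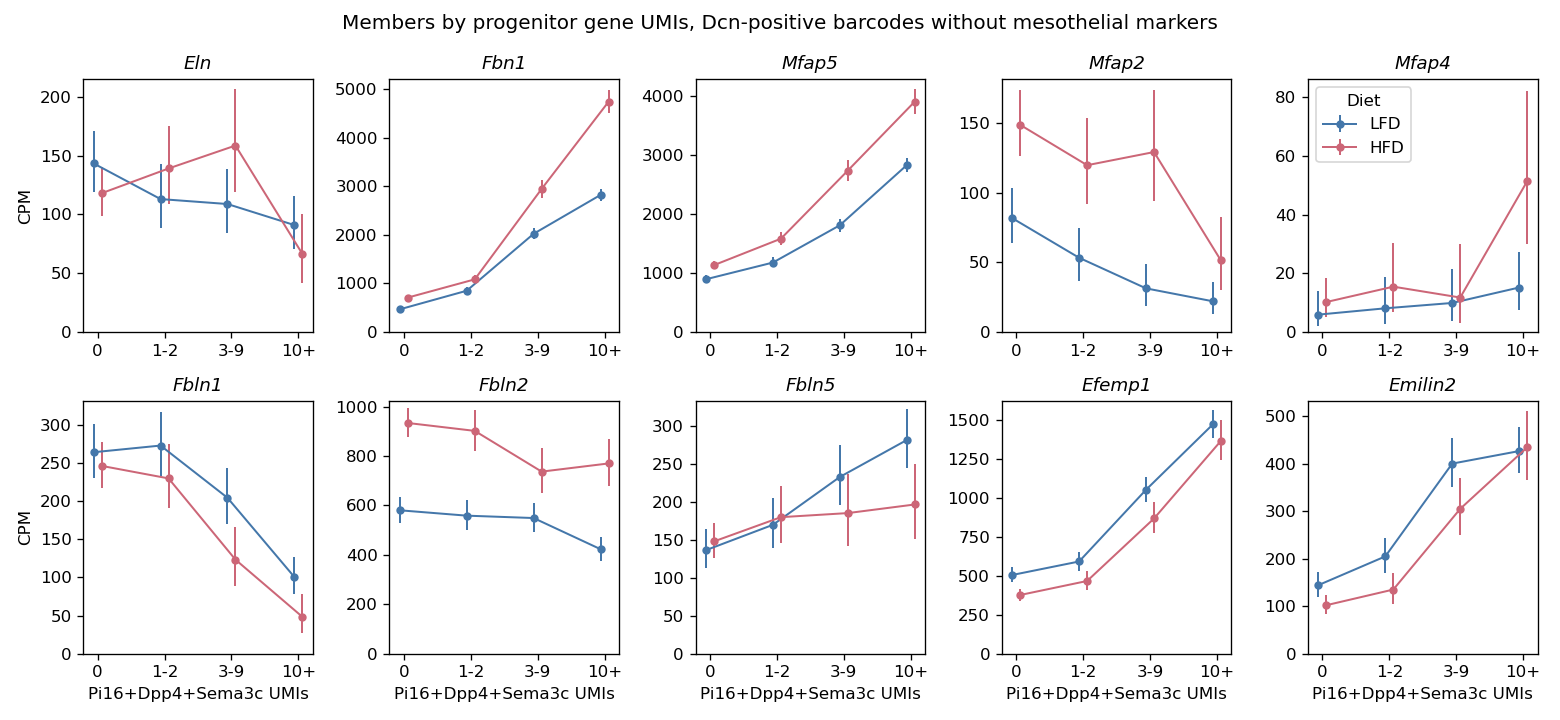
Level of each gene in CPM (linear axis, 1 scale per gene) in fibroblasts and progenitors without mesothelial markers, grouped by their UMIs of Pi16, Dpp4 and Sema3c, on LFD and HFD, with exact 95% Poisson intervals. Fbn1 climbs from 468 to 2824 CPM on LFD and from 709.5 to 4745 CPM on HFD, while Fbln1 and Mfap2 end lower than they start.

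Between the diets, 2 or 3 of 9 genes were higher on HFD in a fibroblast class. The number lower, 0 or 1, was near the share over all genes. Higher and lower again mean at least 1.5-fold with at least 50 UMIs in the class over both libraries. In Pi16-low fibroblasts 2 of 9 genes were higher on HFD, Mfap2 and Fbln2, against 6.22% of 6415 genes, and 1 was lower, Emilin2, against 8.4%. In the full progenitor class 3 of the genes were higher, Fbn1, Mfap2 and Fbln2, against 5.8% of 5985 genes, and 0 were lower, against 7.7%. In progenitors without mesothelial markers the same 3 genes were higher, against 6.97% of 5048 genes, and Fbln1 was lower, against 8.58%. Within the study's limits (200 to 2500 genes and under 5% mitochondrial UMIs) these counts differed. In Pi16-low fibroblasts 0 genes were higher and 0 lower there, against 11.2% and 6.14% of 1970 genes. In the full progenitor class 1 was higher (Eln) and 1 lower (Fbln1), against 9.24% and 12.1% of 628 genes. The median log2 ratio of HFD over LFD was 0.09 over the 9 genes and -0.01 over all genes in Pi16-low fibroblasts, and 0.19 and 0.02 in progenitors.

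Summed, the 10 genes made up more of the fibroblast transcripts on HFD, though not each of them did. Their summed level was 3529 CPM on LFD and 4221 CPM on HFD in Pi16-low fibroblasts, a ratio of 1.2 (1.15 to 1.24). In progenitors it was 7544 and 9893 CPM, a ratio of 1.31 (1.27 to 1.35). Fbn1, Mfap5 and Fbln2 rose by the most CPM in both. In progenitors Fbn1 went from 2459.9 to 3834 CPM and Mfap5 from 2362 to 3311 CPM. There Efemp1, Emilin2, Fbln5 and Fbln1 fell by any amount, and in Pi16-low fibroblasts Efemp1, Fbln1, Emilin2 and Eln did. Within the study's limits (200 to 2500 genes and under 5% mitochondrial UMIs) no difference of the sum was left in Pi16-low fibroblasts. The log2 ratio of the sum was 0 there and 0.16 in the full progenitor class. A list of 7 mural genes moved with the sum, from 156 to 308 CPM in Pi16-low fibroblasts and from 69.0 to 112 CPM in progenitors, led by Pdgfrb in both. In Pi16-low fibroblasts Acta2 was at 1.34 and 51.3 CPM and Tagln at 2.68 and 73.2 CPM, while Mcam was at 0 UMIs and Higd1b at 1 UMI on HFD, and the part of these genes in the result was not tested. Over all barcodes with at least 200 genes the sum ran the opposite way, 2418 CPM on LFD and 1926 CPM on HFD, a ratio of 0.797 (0.780 to 0.814). The make-up of the libraries differed as well: the full progenitor class was 173 of 377 barcodes of both fibroblast classes on LFD (45.9%, 40.8 to 51.1) and 84 of 291 on HFD (28.9%, 23.7 to 34.4). The full progenitor class was also smaller among all barcodes, 16.4% (14.2 to 18.7) against 7.52% (6.04 to 9.23), and the part of this in the sum over all barcodes was not tested.

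**Figure D3:**
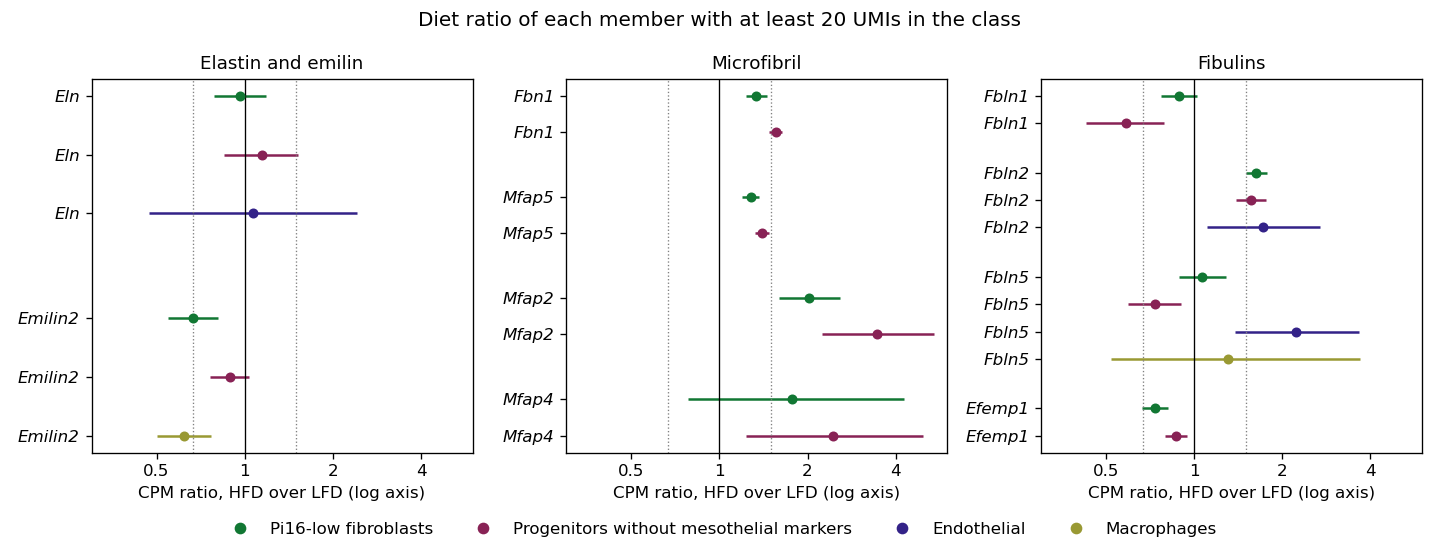
Ratio of the HFD level to the LFD level (log axis) of each gene with at least 20 UMIs in a class, with exact 95% intervals that cover counting error; dotted lines mark 1.5-fold in either direction. Mfap2 lies above the upper line in Pi16-low fibroblasts (2.03) and in progenitors without mesothelial markers (3.46), and Emilin2 lies below the lower one in macrophages (0.620).

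Eln encodes tropoelastin, the monomer of the elastic core. The gene, ENSMUSG00000029675, lies at chr5:134702593-134747323 on the minus strand (GENCODE M21, GRCm38). Its level was 129 CPM (111 to 148) on LFD and 124 CPM (108 to 143) on HFD in Pi16-low fibroblasts, and 99.0 CPM (82.9 to 117) and 113 CPM (89.1 to 142) in progenitors. Intervals overlapped between the diets in both, with ratios of 0.966 (0.788 to 1.18) and 1.14 (0.850 to 1.53). On HFD, 1 progenitor barcode held 23 of the 76 Eln UMIs (30.3%). The ratio in progenitors turned with the number of genes per barcode: it was 2.0 (1.17 to 3.48) with at most 2500 genes (25 and 36 UMIs) and 0.787 (0.533 to 1.14) with more. In the full progenitor class the log2 ratio was 0.82 within the study's limits, past 1.5-fold, and -0.11 without the barcode holding the most UMIs in each library. Eln was 1.95-fold higher in mesothelial-marked barcodes than in other progenitors on LFD (1.42 to 2.64) and 1.93-fold on HFD (1.24 to 2.94).

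Fbn1 encodes fibrillin-1, the main building block of microfibrils. ENSMUSG00000027204 lies at chr2:125300594-125507993 on the minus strand. In progenitors it was at 2459.9 CPM on LFD (2376 to 2546, 3279 UMIs) and 3834 CPM on HFD (3688 to 3985, 2577 UMIs), so the HFD library was 1.56-fold higher (1.48 to 1.64). In Pi16-low fibroblasts the levels were 620.1 CPM (581 to 661) and 829 CPM (785 to 875), a ratio of 1.34 (1.23 to 1.46). Progenitors were above Pi16-low fibroblasts on both diets, 3.97-fold on LFD (3.69 to 4.27) and 4.62-fold on HFD (4.33 to 4.94). Single barcodes overlapped between the diets, as the middle 80% of progenitors ran from 610.0 to 4220 CPM on LFD and from 861 to 6543 CPM on HFD. Mesothelial-marked barcodes had 219.6 CPM on LFD and 344 CPM on HFD, which is 11.2-fold (8.90 to 14.3) and 11.1-fold (8.47 to 15.0) lower than in other progenitors.

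Detection of Fbn1 followed its level. At least 1 UMI was found in 82.8% of Pi16-low fibroblasts on LFD and 90.8% on HFD, and in 99.3% and 100% of progenitors. With each barcode thinned to 1000 UMIs, these shares were 38.2% and 46.3% in Pi16-low fibroblasts and 81.8% and 86.1% in progenitors. T cells had 0 of 64 barcodes with a UMI on LFD, which allows up to 4.69% (3 counts of 64), and 0 of 19 on HFD, which allows up to 15.8%. Their median depth was 2848 and 2027 UMIs, against 7888 and 7546 in Pi16-low fibroblasts. Fbn1 was thus above the T cell background in both fibroblast classes.

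The diet difference of Fbn1 in Pi16-low fibroblasts depended on how many genes a barcode had. In Pi16-low fibroblasts the ratio of HFD to LFD was 0.965 (0.807 to 1.16) in barcodes with at most 2500 genes and 1.52 (1.38 to 1.68) in those with more. In progenitors it was 1.42 (1.2 to 1.68) and 1.61 (1.52 to 1.7), with overlapping intervals. The study's own limits, 200 to 2500 genes and under 5% mitochondrial UMIs, kept 294 LFD and 352 HFD barcodes, and there the log2 ratio was -0.11 in Pi16-low fibroblasts and 0.42 in the full progenitor class. The progenitor ratio was thus above 1 in each of these settings but not past 1.5-fold in all of them.

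Mfap5 encodes a small microfibril-associated glycoprotein that binds fibrillin. ENSMUSG00000030116 lies at chr6:122505845-122529290 on the plus strand. Its level was 997 CPM on LFD and 1275 CPM on HFD (1220 to 1332) in Pi16-low fibroblasts, a ratio of 1.28 (1.2 to 1.37). Progenitors had 2362 CPM (2281 to 2446) and 3311 CPM (3175 to 3451), a ratio of 1.40 (1.33 to 1.48). Both ratios stayed under 1.5. Within the study's limits the log2 ratio was -0.02 in the full progenitor class, with no difference left. Progenitors were 2.37-fold above Pi16-low fibroblasts on LFD (2.23 to 2.52) and 2.60-fold on HFD (2.44 to 2.76). Mesothelial-marked barcodes were lower than other progenitors, 5.61-fold on LFD and 7.58-fold on HFD, with 40.9% of their Mfap5 UMIs on HFD in 1 barcode.

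Mfap2 encodes another fibrillin-binding glycoprotein of microfibrils. ENSMUSG00000060572 lies at chr4:141010418-141015984 on the plus strand. In Pi16-low fibroblasts its level was 68.5 CPM on LFD (55.8 to 83.1, 102 UMIs) and 139 CPM on HFD (121 to 158, 222 UMIs), a ratio of 2.03 (1.60 to 2.59). The level in progenitors was 26.3 CPM (18.3 to 36.5, 35 UMIs) and 90.8 CPM (69.4 to 117, 61 UMIs), a ratio of 3.46 (2.25 to 5.40). It had the highest ratio of the 10 genes in both. Its interval overlaps those of Mfap4 and Fbln2 in Pi16-low fibroblasts and that of Mfap4 in progenitors. The ratio in Pi16-low fibroblasts was 1.09 (0.722 to 1.68) with at most 2500 genes per barcode and 2.57 (1.91 to 3.48) with more, and its log2 was 0.18 within the study's limits. The share of barcodes with a UMI was 27.5% on LFD and 46.9% on HFD in Pi16-low fibroblasts, or 7.54% and 12.7% after thinning. Mfap2 was lower in progenitors than in Pi16-low fibroblasts, at a ratio of 0.384 on LFD (0.253 to 0.568) and 0.654 on HFD (0.484 to 0.872). For the full progenitor class the log2 ratio on LFD was -1.59, and -2.88 within the study's limits.

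Mfap4, a fibrinogen-related protein that binds elastic fibres, was the scarcest of the 10 genes in both fibroblast classes. ENSMUSG00000042436 lies at chr11:61485431-61488900 on the plus strand. It had 10 UMIs on LFD and 19 on HFD in Pi16-low fibroblasts, and the ratio of the levels, 1.77, has an interval of 0.783 to 4.26. In progenitors it had 17 and 21 UMIs, at 12.8 CPM (7.43 to 20.4) and 31.2 CPM (19.3 to 47.8), a ratio of 2.45 (1.23 to 4.95). A single barcode held 35.3% of these UMIs on LFD and 33.3% on HFD. In the full class the log2 ratio was -1.71 within the study's limits, so its direction is not settled at this depth.

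Fbln1 encodes a calcium-binding glycoprotein of elastic fibres and basement membranes. ENSMUSG00000006369 lies at chr15:85205949-85286535 on the plus strand. Among progenitors it was at 148 CPM on LFD (128 to 170, 197 UMIs) and 86.3 CPM on HFD (65.5 to 112, 58 UMIs), a ratio of 0.584 (0.428 to 0.786). The ratio was 0.374 (0.191 to 0.685) in progenitors with at most 2500 genes and 0.639 (0.445 to 0.901) in those with more. In Pi16-low fibroblasts the levels were 272 CPM (247 to 300.3) and 241 CPM (218 to 267), a ratio of 0.886 (0.769 to 1.02). Progenitors were thus below Pi16-low fibroblasts, at a ratio of 0.542 on LFD (0.455 to 0.645) and 0.358 on HFD (0.266 to 0.472). With the mesothelial-marked barcodes kept in, these ratios were 0.965 and 0.866, neither past 1.5-fold, while within the study's limits the same comparison gave log2 ratios of -0.72 and -0.95. Fbln1 was 4.86-fold higher in mesothelial-marked barcodes than in other progenitors on LFD (4.01 to 5.90) and 8.74-fold on HFD (6.32 to 12.2).

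Fbln2 encodes a fibulin that binds fibrillin and tropoelastin. ENSMUSG00000064080 lies at chr6:91212455-91272540 on the plus strand. Its level in Pi16-low fibroblasts was 566 CPM on LFD (528 to 605, 843 UMIs) and 923 CPM on HFD (877 to 971, 1476 UMIs), a ratio of 1.63 (1.5 to 1.78). Progenitors had 480.1 CPM (444 to 519) and 753 CPM (689 to 821), a ratio of 1.57 (1.39 to 1.76). Fbln2 was above 1.5-fold in Pi16-low fibroblasts with at most 2500 genes (1.55, 1.30 to 1.86) and with more (1.67, 1.51 to 1.85). Within the study's limits the log2 ratio was 0.56 in Pi16-low fibroblasts and 0.35 in the full progenitor class, both under 1.5-fold. In the full class it was 0.51 without the barcode holding the most UMIs in each library, 0.56 as a mean of barcode levels and 0.58 without barcodes called as doublets, and each of these falls short of 1.5-fold. In progenitors with at most 2500 genes the ratio was 1.25 (0.871 to 1.79). At least 1 Fbln2 UMI was found in 84.3% of Pi16-low fibroblasts on LFD and 96.6% on HFD, or 39.7% and 57.6% after thinning. T cells had none on either diet.

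Fbln5 encodes a fibulin that brings tropoelastin to microfibrils. ENSMUSG00000021186 lies at chr12:101746565-101819055 on the minus strand. In Pi16-low fibroblasts it was at 148 CPM on LFD (129 to 169) and 158 CPM on HFD (139 to 179), with overlapping intervals. In progenitors it was at 259 CPM (232 to 288) and 190.5 CPM (159 to 226), a ratio of 0.736 (0.596 to 0.904). It was 0.455 (0.251 to 0.786) in progenitors with at most 2500 genes and 0.798 (0.635 to 0.998) in those with more. On LFD progenitors were 1.75-fold above Pi16-low fibroblasts (1.47 to 2.08), whereas on HFD the ratio was 1.2 (0.966 to 1.49). Within the study's limits, with mesothelial-marked barcodes kept in, the log2 ratio of progenitors to Pi16-low fibroblasts was 0.43 on LFD, against 0.68 without those limits and short of 1.5-fold, and -0.2 on HFD. The difference between the diets was itself not tested.

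Efemp1 encodes fibulin-3, an extracellular glycoprotein found in fascia and elastic tissues. ENSMUSG00000020467 lies at chr11:28853204-28926743 on the plus strand. Its level was 553 CPM on LFD (516 to 592) and 406 CPM on HFD (376 to 439) in Pi16-low fibroblasts, a ratio of 0.735 (0.662 to 0.816). The level in progenitors was 1282 CPM (1222 to 1344) and 1114 CPM (1036 to 1197), a ratio of 0.869 (0.797 to 0.948). The progenitor ratio was 1.2 (0.93 to 1.54) with at most 2500 genes per barcode and 0.844 (0.768 to 0.926) with more. Mesothelial-marked barcodes ran the other way, at 2137 CPM on LFD and 3427 CPM on HFD, a ratio of 1.60 (1.43 to 1.80). The 7 mural genes went from 570 to 933 CPM in mesothelial-marked barcodes, led by Acta2, and their part was not tested. Mesothelial-marked barcodes held 21.7% of all Efemp1 UMIs on LFD and 26.1% on HFD. Progenitors were 2.32-fold above Pi16-low fibroblasts on LFD (2.13 to 2.52) and 2.74-fold on HFD (2.47 to 3.05). With the mesothelial-marked barcodes kept in, the log2 ratio was 1.4 on LFD and 1.92 on HFD, and within the study's limits it was 0.72 and 1.25.

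Emilin2 encodes a glycoprotein of the interface between elastin and microfibrils. ENSMUSG00000024053 lies at chr17:71252172-71311978 on the minus strand. In Pi16-low fibroblasts it was at 169 CPM on LFD (149 to 191, 252 UMIs) and 113 CPM on HFD (96.7 to 130.3, 180 UMIs), a ratio of 0.666 (0.547 to 0.809). This ratio lies at the limit of 1.5-fold, and the call ended under 10 of the other settings tried. In progenitors the levels were 415 CPM (381 to 451) and 369 CPM (325 to 418), a ratio of 0.889 (0.763 to 1.04). Progenitors were above Pi16-low fibroblasts, 2.45-fold on LFD (2.11 to 2.86) and 3.28-fold on HFD (2.69 to 3.99). Mesothelial-marked barcodes had 10 Emilin2 UMIs on LFD and 3 on HFD, and lay below other progenitors 14.0-fold (7.54 to 29.3) and 18.6-fold (6.29 to 90.8).

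Macrophages held UMIs of Emilin2 and few of the other genes of the set. Its level there was 109.7 CPM on LFD (93.5 to 128, 163 UMIs) and 68.0 CPM on HFD (58.9 to 78.1, 199 UMIs), a ratio of 0.620 (0.502 to 0.767). It was the 1 gene of the set with at least 50 UMIs in macrophages and was lower on HFD, as were 16.9% of 7158 genes in that class. T cells had 5 Emilin2 UMIs on LFD, or 16.2 CPM (5.27 to 37.9), below the macrophage level. On HFD they had 0, which allows up to 82.8 CPM, so at this depth the HFD level of macrophages cannot be set above that of T cells. A UMI was found in 42.2% of macrophages on LFD and 39.6% on HFD at median depths of 6328 and 6915 UMIs, against 3 of 64 T cells on LFD (4.69%) and 0 of 19 on HFD. After thinning, the macrophage shares were 9.78% and 8.44%. The log2 ratio was -0.03 within the study's limits, -0.43 with at most 2500 genes, -0.89 with more, -0.44 as a mean of barcode levels and -0.57 with under 5% mitochondrial UMIs. The class also differed in its markers: Mrc1, a mannose receptor of resident macrophages, was at 1907 CPM on LFD and 921 CPM on HFD, and Cd68 at 536 and 967 CPM, and their part in the result was not tested. Fbln5 had 7 and 18 UMIs in macrophages, and the other 8 genes had at most 5 UMIs on either diet.

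In endothelial barcodes Fbln2 and Fbln5 were the leading genes of the set, and both were higher on HFD. Fbln5 was at 48.9 CPM on LFD (32.2 to 71.1, 27 UMIs) and 108 CPM on HFD (56 UMIs), a ratio of 2.22 (1.38 to 3.65). Fbln2 was at 63.3 CPM (44.1 to 88.1, 35 UMIs) and 108 CPM (81.9 to 141, 56 UMIs), a ratio of 1.71 (1.10 to 2.69). These were the 2 genes of the set with enough UMIs in that class, where 5.89% of 3397 genes were higher. Over the same barcodes 7 mural genes summed to 95.9 CPM on LFD and 174 CPM on HFD, led by Mcam, and 4 adipocyte genes to 284 and 116 CPM, led by Cidec, and their part was not tested. For Fbln5 the log2 ratio was 0.36 with over 2500 genes per barcode, 1.89 as a mean of barcode levels and 2.76 within the study's limits. For Fbln2 it was 0.36 with at most 2500 genes, 0.44 with barcodes of more than 1 class added and 0.52 as a mean of barcode levels, all under 1.5-fold. Fbln5 UMIs were found in 12.2% of endothelial barcodes on LFD and 18.3% on HFD, and in 1.10% and 8.33% after thinning, which left out 7 and 19 barcodes. Fbln2 was not found in more of them on HFD, with 20.4% and 19.1%, or 7.69% and 7.29% after thinning. Eln had 14 UMIs on each diet.

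Few barcodes were mural alone, and the 10 genes had 3 UMIs there on LFD and 4 on HFD, so differences were not detectable at this depth. The mural rule was met by 64 and 116 barcodes in all, and 51 and 92 barcodes met the endothelial and mural rules together and no other. In these, Fbln5 was at 46.4 CPM on LFD (35 UMIs) and 106 CPM on HFD (100 UMIs), a ratio of 2.29 (1.55 to 3.47). Fbn1 was at 18.5 and 43.6 CPM, a ratio of 2.35 (1.25 to 4.67), and Fbln2 at 63.6 and 75.5 CPM, a ratio of 1.19 (0.811 to 1.75). Mfap5 had 0 UMIs on either diet, which allows up to 4.89 and 3.92 CPM. Over the same barcodes 6 fibroblast genes summed to 1013.5 and 1459.6 CPM and 4 adipocyte genes to 203 and 121 CPM, and their part was not tested. These barcodes had a median of 13270 UMIs and 3976 genes on LFD and 9029 UMIs and 3216 genes on HFD, against 4318 and 3156 UMIs in endothelial barcodes. Scrublet, a doublet caller, called 0 of the 51 and 0 of the 92, and 11 of its 21 calls on LFD and 19 of 26 on HFD fell on other barcodes of more than 1 class. Whether they hold 1 cell or several is not settled by these values.

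Other genes of elastic fibre assembly were read from a list of 20 that holds further fibrillins, fibulins and emilins, latent TGF-beta binding proteins, lysyl oxidases and ADAMTS-like proteins. In Pi16-low fibroblasts 13 of them had at least 50 UMIs, and of these 2 were higher on HFD (against 6.22% of all genes) and 1 lower (against 8.4%), with a median log2 ratio of 0.30. Fbln7, a fibulin, had 16 UMIs (10.7 CPM) on LFD and 153 UMIs (95.7 CPM) on HFD, a ratio of 8.91 (5.31 to 16.0). Loxl2, a lysyl oxidase that crosslinks matrix, was at 143 and 216 CPM, a ratio of 1.51. Loxl3, of the same enzyme family, was at 34.2 and 21.3 CPM, a ratio of 0.621. In the full progenitor class 12 had enough UMIs and 1 was lower, against 7.7% of all genes: Adamtsl4, a microfibril-binding protein, at 50.9 and 30.4 CPM. Without the mesothelial-marked barcodes 0 were lower, and Adamtsl4 had a ratio of 0.67 (0.408 to 1.07). In endothelial barcodes Ltbp4, which binds latent TGF-beta and fibulins, was at 299 and 300.1 CPM, whereas it was at 508 and 350.2 CPM in Pi16-low fibroblasts, a ratio of 0.689 (0.617 to 0.77) that does not pass 1.5-fold. In macrophages Ltbp3 was at 7.40 and 18.8 CPM, a ratio of 2.54 (1.31 to 5.38).

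Enzymes that degrade elastin or activate such enzymes were read from a list of 8. In Pi16-low fibroblasts 3 of the 4 with enough UMIs were higher, against 6.22% of all genes, and their median log2 ratio was 0.70. Ctsk, the cysteine protease cathepsin K, was at 174 CPM on LFD and 558 CPM on HFD, a ratio of 3.20 (2.78 to 3.68). The metalloproteases Mmp2 and Mmp14 were at 278 and 199 CPM on LFD and at 459 and 320.2 CPM on HFD. In progenitors Mmp2 was at 124 and 266 CPM, a ratio of 2.15, and Ctsk at 90.8 and 185 CPM, a ratio of 2.03. In macrophages, whose Mrc1 and Cd68 levels also differed between the diets as given above, 4 of the 5 with enough UMIs were higher, against 14.7% of 7158 genes, and 1 was lower, against 16.9%. Mmp12, the macrophage metalloelastase, had 1 UMI on LFD and 2278 on HFD, or 0.673 and 778 CPM, a ratio of 1157 (207 to 45713). Ctsk had 3 and 566 UMIs there, or 2.02 and 193 CPM, a ratio of 95.8 (32.6 to 466). The cathepsins Ctss and Ctsl were at 783 and 424 CPM on LFD and at 1519.8 and 1962 CPM on HFD, ratios of 1.94 (1.82 to 2.07) and 4.63 (4.26 to 5.03). Mmp9, a gelatinase, was lower on HFD, at 230.1 and 19.5 CPM, a ratio of 0.0846 (0.0628 to 0.112).

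For each gene of the set, the genes most alike across the 5 classes, with the full progenitor class, and both diets were found by Pearson's r of log2(CPM + 10) over these 10 points, among 6634 genes. The points share libraries, and the mural ones rest on few UMIs, so r is a description. With the mesothelial-marked barcodes kept in, Fbn1 and Efemp1 were closest to each other at 0.997, followed for both by Nenf, at 0.979 with Fbn1 and 0.980 with Efemp1, and Tnfaip6. Within that class they differed, as Fbn1 was lower and Efemp1 higher in mesothelial-marked barcodes. Mfap5 was closest to Ddr2 (0.982) and to the collagen genes Col1a1 (0.982) and Col1a2 (0.975). Mfap2 was closest to Fap, a fibroblast surface protease (0.984), Srpx2 (0.980) and Oat (0.973). Eln was closest to Medag (0.998), Plat (0.997) and Prelp (0.996), and Mfap4 to Fibin (0.997), Thy1 (0.980) and Fgf18. Fbln1 was close to Pard3 (0.999) and Col4a5 (0.998), Fbln2 to Adamts5 (0.968), Sar1a and Kdelr2, and Fbln5 to Lamb2 (0.972), Cd34 and Rcn1. Emilin2 was closest to Qpct (0.991), Fn1 (0.990) and Pla2g4a.

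Promoter sequences from RefSeq (GRCm38.p6) were found for 7 of the 10 genes, all but Eln, Mfap4 and Mfap5. Windows of 250 bases before the RefSeq transcript start are shown for the pair of genes lower in progenitors than in Pi16-low fibroblasts, Mfap2 and Fbln1, and for Efemp1, which was higher there. Mfap2 promoter 2 spans chr4:141010174-141010423, Fbln1 promoter 1 spans chr15:85205699-85205948 and Efemp1 promoter 1 spans chr11:28852955-28853204, all on the plus strand. By GENCODE M21, 6 bases of the Mfap2 window and 1 of the Efemp1 window lie in an exon. Capitals mark matches, on either strand, to the motifs searched, which were TATAAA (the TATA box), GGGCGG (bound by Sp factors), CCAAT (the CCAAT box), CAGACA (bound by Smad factors), TGACTCA (bound by AP-1) and GGAATG (bound by TEAD factors).
Mfap2 promoter 2: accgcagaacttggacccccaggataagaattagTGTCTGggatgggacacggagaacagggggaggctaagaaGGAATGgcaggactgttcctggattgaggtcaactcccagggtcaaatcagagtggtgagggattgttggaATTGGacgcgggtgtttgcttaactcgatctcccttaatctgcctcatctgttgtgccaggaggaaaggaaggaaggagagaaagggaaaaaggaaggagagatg
Fbln1 promoter 1: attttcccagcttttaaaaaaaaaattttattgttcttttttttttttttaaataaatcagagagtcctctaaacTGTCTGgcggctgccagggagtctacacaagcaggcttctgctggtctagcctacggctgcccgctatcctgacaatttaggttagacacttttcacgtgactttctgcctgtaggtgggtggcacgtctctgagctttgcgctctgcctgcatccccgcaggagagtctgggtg
Efemp1 promoter 1: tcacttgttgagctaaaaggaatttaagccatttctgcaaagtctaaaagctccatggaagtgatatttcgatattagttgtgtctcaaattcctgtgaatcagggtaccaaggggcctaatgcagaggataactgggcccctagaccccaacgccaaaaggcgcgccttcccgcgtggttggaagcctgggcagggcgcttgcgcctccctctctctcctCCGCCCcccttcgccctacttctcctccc
The Mfap2 and Fbln1 windows both held CAGACA on the opposite strand, printed as its reverse complement. CAGACA was in 17.1% of 32851 promoter windows of this length. Fbln5 promoter 2, not printed, held CAGACA too, and Fbln5 was higher in progenitors on LFD. The Mfap2 window also held GGAATG (in 12.6% of windows) and, on the opposite strand, CCAAT (33.8%). Mfap2 and Fbln1 each have a further window that is not printed, since 96 bases of Mfap2 promoter 1 and 59 of Fbln1 promoter 2 lie in an exon. Mfap2 promoter 1 held GGGCGG at 2 places and no CAGACA, and Fbln1 promoter 2 held CAGACA and GGGCGG. The Efemp1 window held GGGCGG on the opposite strand (32.7%). None of the 3 windows held TATAAA (12.4%) or TGACTCA (4.46%). Their GC content was 51.2%, 46.4% and 53.6% in the order shown, against a median of 52.4% over all windows. A match describes these letters and is not a binding site.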

How the data were processed

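Single-cell RNA was captured from eWAT stromal cells of 1 LFD and 1 HFD library with 10x Chromium 3′ chemistry, version 3. The authors deposited unscaled UMI counts, which they had made with Cell Ranger (version 3.0.2 in the file header) on mm10 and with no limit on genes or mitochondrial share applied. Here counts were summed per class and library, and CPM, exact intervals and ratios were computed with Python 3.11.15, numpy 2.4.6, scipy 1.17.1 and pandas 2.3.3, and plotted with matplotlib 3.10.9. The fold and interval steps were tested on simulated data. For a level of 0 the upper Poisson bound is given, and for a share of 0 the limit of 3 counts. Gene positions came from GENCODE M21, in which 27722 of 27998 gene identifiers were found. The 10 genes had no exon overlap with another gene on the same strand. Doublets were called with Scrublet (scanpy 1.11.5), for 21 of 1057 and 26 of 1117 barcodes, and were left out only as an alternative. The text names all 10 genes, the 3 genes most like each by Pearson's r (1 of those for Fbln1 is not reported here), and the genes of the assembly and degradation lists with at least 50 UMIs in a class and at least a 1.5-fold difference; of these lists, Ltbp4 was named after its values were seen, as the 1 gene with enough UMIs in endothelial barcodes. The members and lists were chosen with earlier results of these data known.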

Additional observations from a re-analysis of the deposited data

Results flagged for a closer look

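The diet ratio of Fbln5 differed in direction between classes. HFD over LFD was 0.736 in progenitors without mesothelial markers, and 1.97 in mesothelial-marked barcodes (1.30 to 2.99), 2.22 in endothelial barcodes and 2.29 in barcodes that met the endothelial and mural rules together. Each interval lies on 1 side of equal levels. On HFD a single barcode held 26.1% of the Fbln5 UMIs of the 12 mesothelial-marked barcodes. In endothelial barcodes on HFD a single barcode held 19.6%. The difference between the classes was not tested, since there was 1 library per diet.

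The diet ratio of Efemp1 also differed in direction. It was 0.735 in Pi16-low fibroblasts and 0.869 in progenitors without mesothelial markers, and 1.6 in mesothelial-marked barcodes, of which there were 25 on LFD and 12 on HFD. A single barcode held 24.3% of the Efemp1 UMIs of these 12. In progenitors without mesothelial markers the ratio was 1.2 (0.93 to 1.54) with at most 2500 genes per barcode and 0.844 (0.768 to 0.926) with more. This difference was not tested either.

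Emilin2 UMIs were also counted in barcodes outside the 5 classes, at few UMIs. In barcodes with dendritic cell genes it was at 43.7 CPM on LFD (8 UMIs, 18.9 to 86.0) and 53.7 CPM on HFD (14 UMIs, 29.4 to 90.1). In barcodes with monocyte genes it was at 78.2 CPM on LFD (6 UMIs, 28.7 to 170.1) and 238 CPM on HFD (16 UMIs, 136 to 387), a ratio of 3.05 (1.13 to 9.51). These barcodes differed in make-up: 3 B cell genes summed to 1381 CPM on LFD and 298 CPM on HFD, 3 T cell genes to 625 and 59.6 CPM, and 5 macrophage genes to 248 and 1206 CPM, and their part was not tested. The level in T cells of both libraries was 14.2 CPM (4.6 to 33.1), whose interval overlaps those of the dendritic barcodes on both diets and of the monocyte barcodes on LFD. T cells on HFD alone had 0 UMIs, which allows up to 82.8 CPM.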

How the results depend on the processing

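No paired analysis was possible because there was 1 library per diet. Limits on genes per barcode or mitochondrial share taken singly, and leaving out mesothelial-marked barcodes, were added after seeing the data. In the fibroblast classes, 223 of 260 diet ratios of single genes under other settings moved by no more than counting error and 32 moved further. A further 5 changed direction, which was counted only where the main interval excluded equal levels. Of the ratios of progenitors to Pi16-low fibroblasts, 201 of 260 stayed within counting error, 58 moved and 1 changed direction in that sense. Other changes of sign are counted among the rest. Between settings, diet ratios took both signs for Eln in both classes and for Fbn1 and Fbln5 in Pi16-low fibroblasts. In progenitors those of Efemp1, Emilin2, Mfap4 and Mfap5 did too. Ratios of progenitors to Pi16-low fibroblasts took both signs for Eln and Fbln1 on both diets, Mfap4 on LFD and Fbln5 on HFD. Over the settings, the log2 ratio of progenitors to Pi16-low fibroblasts ran from 1.32 to 2.18 for Fbn1 and from 0.94 to 1.22 for Mfap5 on LFD. That of Efemp1 on LFD ran from 0.72 to 1.58. Unless stated otherwise, values below are log2 ratios of HFD to LFD or counts of genes past 1.5-fold, with mesothelial-marked barcodes kept in, and the cause was not tested for any of them.

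Within the study's limits (22 LFD and 16 HFD progenitors), Fbn1 in Pi16-low fibroblasts went from 0.42 to -0.11, Mfap4 in progenitors to -1.71 and Mfap5 in progenitors from 0.5 to -0.02. The log2 ratio of progenitors to Pi16-low fibroblasts for Fbln5 on HFD went from 0.42 to -0.2. The 10 genes summed went from 0.26 to 0 in Pi16-low fibroblasts, from 0.42 to 0.16 in progenitors and from -0.66 to -0.03 in macrophages. Counts of higher genes went from 2 to 0 in Pi16-low fibroblasts and from 3 to 1 in progenitors, which was Eln and none of the former 3 (Mfap2, at 2.46, fell under the minimum of 50 UMIs), and of lower genes from 1 to 0 and from 0 to 1 (Fbln1). Within these limits 11.2% of 1970 genes were higher and 6.14% lower in Pi16-low fibroblasts. Of 628 progenitor genes, 9.24% were higher and 12.1% lower.

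With at most 2500 genes, Fbn1 in Pi16-low fibroblasts was -0.05 and Mfap4 in progenitors -1.65. The summed genes were at 0.05 in Pi16-low fibroblasts, 0.19 in progenitors and -0.36 in macrophages. In Pi16-low fibroblasts 1 gene (Fbln2) was higher, against 11.4% of 2411 genes, and 0 were lower, against 6.89%. In progenitors 2 were higher (Eln and Fbln2), against 9.13% of 865 genes, and 2 lower (Fbln1 and Fbln5), against 10.1%. With over 2500 genes, the sums were 0.33 in Pi16-low fibroblasts and 0.46 in progenitors.

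As a mean of barcode levels, the sums were 0.2 in Pi16-low fibroblasts and 0.34 in progenitors, where 1 gene (Fbln1) was lower. With progenitors at 5 or more UMIs and Pi16-low fibroblasts at 0, the progenitor sum was 0.47. With barcodes of more than 1 class counted in each, the macrophage sum was 0.02. Without barcodes called as doublets, 2 genes were higher in progenitors (Fbn1 and Mfap2), against 5.7% of 5929 genes. At 2-fold, 1 gene (Mfap2) was higher in each fibroblast class. Shares over all genes are not given at 2-fold or for the mean of barcode levels. They are also not given on division by the median ratio or without the barcode with most UMIs. Without mesothelial-marked barcodes 1 gene (Fbln1) was lower in progenitors, against 8.58% of 5048 genes. The lower gene of Pi16-low fibroblasts, Emilin2, was lost (0 genes) at 2-fold and under 10% or 5% mitochondrial UMIs. It was lost on division by the median ratio of all genes and with Dcn of at least 20. The same held with the stricter division at 5 and 0, without the barcode with most UMIs, and in both ranges of gene number. Of all genes in that class, 7.85% were lower under 10% and 8.17% under 5% mitochondrial UMIs, and 8.34% with Dcn of at least 20. The share was 7.87% with the stricter division, 6.89% with at most 2500 genes and 9.56% with more.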
